A study of Mus musculus with 2 samples.

Results

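The microRNA genes Mir9-1, Mir9-2, Mir9-3, Mir124a-1, Mir124a-2, Mir128-1, Mir128-2, Mir132, Mir212 and Mir338 are best known from neurons and glia, and their levels in fetal lung are described here. The rule names the genes and uses no threshold on measured values, but the list was drawn up with earlier results of these data known. The rows were found by matching gene identifiers to GENCODE release M21. Of the 10 genes, 9 have a row in both tables, among 1973 microRNA genes in all. No row carries the M21 identifier of Mir9-1, so that gene was not analysed here. Mir132, Mir212 and Mir338 are single-copy, meaning that their hairpins share no stretch of 22 bases with another annotated microRNA hairpin. The remaining 6 measured genes share such a stretch, and reads that fit several loci were not assigned to any gene.

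The material was whole lung of healthy mouse embryos of strain B6NCrl at embryonic day 16.5, with males and females pooled. RNA of under 30 bases was sequenced in 2 libraries, labelled as biological replicates 1 and 2 of a single group. Replicate 2 came from 41 embryos, and the size of the other pool is not given in the sources used here. There is no treatment, mutant or second tissue, so levels are compared between genes and between the 2 libraries.

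MicroRNAs are cut from hairpin precursors into short strands, the 5p and 3p arms, which guide repressor complexes to messenger RNAs. Pairing rests mainly on the seed, the bases near the 5′ end of the strand. In the brain, miR-124 marks neurons, miR-9 acts in neural progenitors and young neurons, and miR-128 restrains neuronal excitability. The pair miR-132 and miR-212 is induced by neuronal activity through the factor CREB, and miR-338 promotes the maturation of oligodendrocytes. In the lung, nerve fibres and ganglia run along the airways, and neuroendocrine cells lie within the epithelium, yet several of these microRNAs are also known outside the nervous system.

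The strands below show which reads could be assigned to a single gene. RefSeq (build GRCm38.p6) holds mature sequences for 8 of the 10 genes, all but Mir124a-1 and Mir124a-2. The 5p strands of Mir132, Mir212 and Mir338 are not printed. Each of the other strands is given 5′ to 3′ with its seed, bases 2 to 8, in capitals.
miR-132-3p (Mir132): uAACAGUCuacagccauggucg
miR-212-3p (Mir212): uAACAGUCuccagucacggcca
miR-338-3p (Mir338): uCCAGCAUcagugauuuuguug
miR-128-3p (Mir128-1 and Mir128-2): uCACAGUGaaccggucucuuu
miR-128-1-5p (Mir128-1): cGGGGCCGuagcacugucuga
miR-128-2-5p (Mir128-2): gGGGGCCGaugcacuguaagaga
miR-9-5p (Mir9-1, Mir9-2 and Mir9-3): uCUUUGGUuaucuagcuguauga
miR-9-3p (Mir9-1, Mir9-2 and Mir9-3): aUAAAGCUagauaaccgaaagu

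The 3p strands of Mir132 and Mir212 have the same seed and are identical at 17 of 22 positions, with the first difference at position 10, so a read can tell them apart. No other mature microRNA in the RefSeq table has their seed. The strand miR-128-3p is written letter for letter in 2 hairpins, and the 5p strands of the same hairpins differ, with a longest common run of 7 bases. Both miR-9 strands occur in full in 3 hairpins. A read made only of such a shared strand fits several loci. The counts of Mir128-1, Mir128-2 and the Mir9 genes therefore do not hold the whole of miR-128 and miR-9, whose totals were not measured.

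The tables hold 6376715 gene counts in replicate 1 and 4123748 in replicate 2. Reads that fit several loci amounted to 30.0% and 31.8% of all reads of replicates 1 and 2. Levels are given as CPM, counts per 1000000 gene counts of the library, and 1 count equals 0.157 CPM in replicate 1 and 0.242 CPM in replicate 2. Intervals and limits cover counting error only, and the reads carry no molecular identifiers. A read spans a mature microRNA, so levels were not divided by gene length, and how well each sequence is captured in the library was not measured. The leading markers of cell types that the lung holds were high, but not every marker was. Mir126a of endothelium reached 87277 and 79120 CPM in replicates 1 and 2. Mir143 of mesenchyme reached 70224 and 72270 CPM, and Mir429 of epithelium 14438 and 15090. These cell types occur in other organs too, so the markers do not test the tissue label. The endothelial list, of which Mir126a alone has a row, held 8.73% and 7.91% of gene counts in replicates 1 and 2. The 5 mesenchymal genes held 7.58% and 7.82%, and the 5 epithelial genes 3.26% and 3.39%. Most of the mesenchymal share was Mir143, with 447801 of 483258 counts in replicate 1 and 298024 of 322528 in replicate 2. Mir199a-2 and Mir199a-1 of that list, which have sequence copies, had means of 60.6 and 5.65 CPM.

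Among reads that match a single locus, the neural-type genes together made up a trace of the lung microRNA counts. The single-copy Mir132 supplied the greater part of it. Reads that fit several loci are left out, so these shares are not those of the whole microRNAs. The neural-type genes summed to 2532 counts in replicate 1 and 1964 in replicate 2. This is 0.0397% (exact Clopper-Pearson 95% interval 0.0382 to 0.0413) and 0.0476% (0.0455 to 0.0498) of gene counts, with a mean of 0.0437% ± 0.00560 (SD, n = 2). The single-copy genes had nearly equal sums, 0.0316% in replicate 1 and 0.0319% in replicate 2. The 6 genes with copies held 0.00814% and 0.0157%, so the gap between the 2 sums lay mostly in the genes with copies. Near-equal sums do not show that each single-copy gene was level. Mir338 was higher in replicate 1 (69.5 against 52.6 CPM). Mir132 (238.6 against 222.1 CPM) and Mir212 (27.6 against 24.2) were higher in replicate 2, with intervals that overlap.

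In whole tissue, fewer cells of a type and less RNA per cell cannot be told apart. Detection here means that both libraries hold 10 counts or more of a gene. That held for 5 of the 9 neural-type genes, against 17.6% of all microRNA genes. All 3 single-copy genes were detected, where 27.9% of single-copy microRNA genes were. Of the 6 genes with copies, 2 were detected, where 7.12% of such genes were. The median over the 9 genes was 25.9 CPM, and that over all 1973 genes was 0 CPM, since 1264 genes had 0 counts in both libraries. Among detected genes the median was 61.0 CPM for the 5 neural-type genes and 180.2 CPM for all 347.

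**Figure D1:**
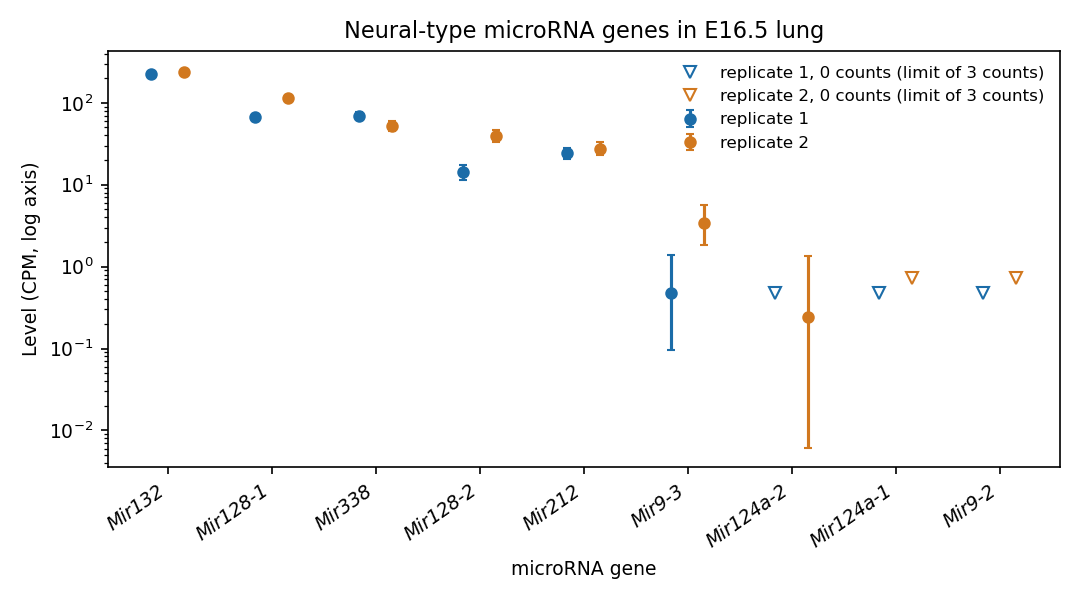
Level of each of the 9 measured genes in replicate 1 (blue) and replicate 2 (orange), in CPM on a log axis, with exact 95% Poisson intervals. Open triangles stand at the limit of 3 counts (0.470 CPM in replicate 1 and 0.727 CPM in replicate 2) where the count is 0. Mir132 lies above all others in both libraries, and the Mir9 and Mir124a genes lie below 4 CPM.

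Mir132 was the highest of the group. It had 1416 counts in replicate 1 and 984 in replicate 2, which is 222.1 CPM (Poisson 95% interval 210.6 to 233.9) and 238.6 CPM (223.9 to 254.0). The mean was 230.3 CPM ± 11.7 (SD, n = 2), and the intervals of the 2 libraries overlap. Mir132 made up 55.9% and 50.1% of all neural-type counts in replicates 1 and 2, which leave out reads that fit several loci. By mean level it ranked 159 of the 347 detected genes, and it was the only one of the 9 above 100 CPM in both libraries.

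Mir132 (ENSMUSG00000065537.1) lies at chr11:75173682-75173747 on the plus strand of mm10, in an intron of the non-coding transcript gene 1700016P03Rik. Mir212 (ENSMUSG00000065590.1) lies upstream in an intron of the same gene, at chr11:75173388-75173478, 203 bases before Mir132. The pair is known to be cut from a shared primary transcript. Mir212 had 154 counts in replicate 1 and 114 in replicate 2, or 24.2 CPM (20.5 to 28.3) and 27.6 CPM (22.8 to 33.2), with a mean of 25.9 ± 2.47 (SD, n = 2). Its rank was 252 of 347.

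The counts of this pair kept a steady proportion. Mir132 exceeded Mir212 by 9.19-fold in replicate 1 (95% interval 7.78 to 10.9) and by 8.63-fold in replicate 2 (7.10 to 10.6), with a mean of 8.91 ± 0.398 (SD, n = 2). A two-sided Fisher's exact test found no difference in this proportion between the libraries (p = 0.647, also 0.647 after Benjamini-Hochberg adjustment over 2 such ratios). The ratio of the 2 folds was 1.07. A p above the threshold does not show that the proportions are equal, and the intervals of the 2 folds leave room for a larger difference.

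Mir338 (ENSMUSG00000065600.1) had 443 counts in replicate 1 and 217 in replicate 2, or 69.5 CPM (63.2 to 76.3) and 52.6 CPM (45.9 to 60.1). Its mean was 61.0 ± 11.9 CPM (SD, n = 2), at rank 217 of 347. It lies at chr11:120014765-120014862 on the minus strand, in an intron of Aatk, which encodes a kinase best known from the nervous system. The annotation places a second microRNA gene, Mir3065, on the opposite strand of the same stretch, and Mir3065 was not analysed here. All counts of Mir338 were on its own strand, with 0 opposite-strand counts in each library.

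Mir128-1 and Mir128-2 lie in introns of different protein-coding genes. Mir128-1 (ENSMUSG00000065520.1) is in R3hdm1 at chr1:128202361-128202430, plus strand, and Mir128-2 (ENSMUSG00000065441.1) is in Arpp21, a gene of neurons, at chr9:112118636-112118711, minus strand. Mir128-1 had 425 counts in replicate 1 and 471 in replicate 2, although the first library is deeper. These are 66.6 CPM (60.5 to 73.3) and 114.2 CPM (104.1 to 125.0), with a mean of 90.4 ± 33.6 (SD, n = 2) and rank 198 of 347. Mir128-2 had 91 and 163 counts in replicates 1 and 2, or 14.3 CPM (11.5 to 17.5) and 39.5 CPM (33.7 to 46.1), with a mean of 26.9 ± 17.9 (SD, n = 2) and rank 250 of 347. For each of the 2 genes the intervals of the libraries do not overlap. Since the arms were counted together and the 3p strand fits both hairpins, these levels are of the reads that matched a single locus.

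Mir128-1 stood above Mir128-2 by 4.67-fold in replicate 1 (95% interval 3.72 to 5.92) and by 2.89-fold in replicate 2 (2.41 to 3.47). This proportion differed between the libraries by a two-sided Fisher's exact test (adjusted p = 0.00202 over 2 ratios). The test was chosen after the counts of the pair had been seen, and it weighs counting error alone. Both copies were higher in replicate 2, and the fold of Mir128-1 over Mir128-2 was smaller there.

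The Mir9 and Mir124a genes were the lowest of the group, and all but Mir9-3 had at most 1 count. Mir9-3 (ENSMUSG00000093238.1, chr7:79505264-79505353, plus strand, in an intron of the non-coding gene Mir9-3hg) had 3 counts in replicate 1 and 14 in replicate 2, or 0.470 CPM (0.0970 to 1.37) and 3.39 CPM (1.86 to 5.70). Mir9-2 (ENSMUSG00000065424.1, chr13:83738814-83738885, plus strand, over an exon of the non-coding gene C130071C03Rik) had 0 counts in both libraries. Mir124a-1 (ENSMUSG00000065597.1, chr14:64590657-64590741, plus strand, over an exon of Mir124a-1hg) also had 0 counts in both. Mir124a-2 (ENSMUSG00000093073.1, chr3:17795662-17795770, plus strand, over an exon of Mir124-2hg) had 0 counts in replicate 1 and 1 in replicate 2. A count of 0 allows up to 3 counts, which is 0.470 CPM in replicate 1 and 0.727 CPM in replicate 2, but only for reads that match a single locus.

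How much of each hairpin is unique bears on these low values. In Mir9-2, 27 of 51 stretches of 22 bases occur in no other microRNA hairpin, and in Mir9-3 60 of 69 do. In Mir124a-1 the number is 43 of 64, and in Mir124a-2 it is 62 of 88. For Mir128-1 and Mir128-2 it is 47 of 49 and 53 of 55, although the whole of miR-128-3p lies in both hairpins. The mature miR-9 strands lie in the shared part, so the counts of 0 do not show that miR-9 is absent from the lung. For the Mir124a genes no mature sequence was available to place, so their low counts do not show that miR-124 is absent either. On the opposite strand of Mir9-1 the tables list Gm25641, with 2 counts in replicate 1 and 0 in replicate 2. Both of these counts lie on the strand of Mir9-1 and are below the limit of 3 counts. The microRNA genes annotated within 10000 bases on the same strand, Mir3093 beside Mir9-1 and Mir3078 beside Mir124a-1, had 0 counts in both libraries.

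**Figure D2:**
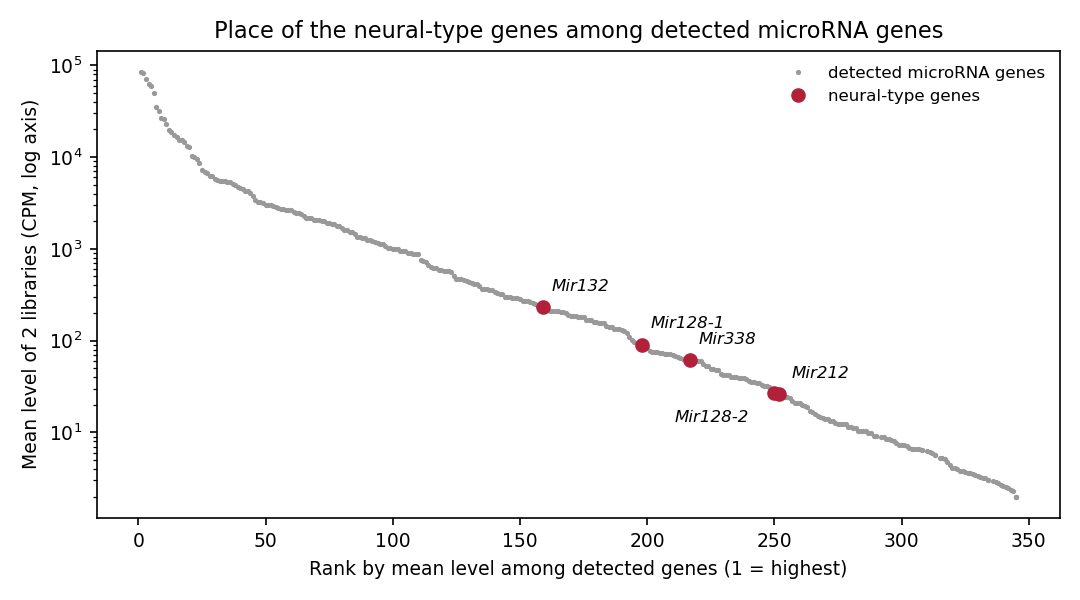
Mean level of the 347 detected microRNA genes (grey), in CPM on a log axis, against their rank, with the 5 detected neural-type genes in red. They stand between rank 159 (Mir132, 230.3 CPM) and rank 252 (Mir212, 25.9 CPM).

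In the order of mean levels, Mir132 was followed by Mir128-1, Mir338, Mir128-2, Mir212, Mir9-3 and Mir124a-2. This order is of reads that match a single locus, so genes with copies can stand lower than their microRNAs. Not every step of this order held in both libraries. Mir132 was above Mir128-1 by 3.33-fold in replicate 1 and 2.09-fold in replicate 2. Mir128-1 and Mir338 changed places: Mir128-1 was 0.959 times Mir338 in replicate 1 and 2.17 times in replicate 2. Mir128-2 and Mir212 did so as well, at 0.591 times in replicate 1 and 1.43 times in replicate 2. Mir338 was above Mir128-2 in both, by 4.87-fold and 1.33-fold, and Mir212 was above Mir9-3 by 51.3-fold and 8.14-fold in replicates 1 and 2. The neighbours that changed places do not differ beyond the spread of the libraries.

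The leading gene of each list of lung cell markers stood above Mir132, but not every marker did. Mir375, a microRNA of neuroendocrine cells, was at 2614 and 2831 CPM in replicates 1 and 2, which is 11.8-fold and 11.9-fold above Mir132. Mir429 was 65.0-fold and 63.2-fold above Mir132, and Mir126a 393-fold and 332-fold. Below Mir132 in both libraries were 3 of the 4 neuroendocrine genes (Mir7-1, Mir7b and Mir7-2, with means of 60.7, 32.8 and 2.02 CPM) and 2 of the 5 mesenchymal genes (Mir199a-2 and Mir199a-1, with means of 60.6 and 5.65 CPM). All of these but Mir7b have sequence copies, so their counts leave out reads that fit several loci. They do not show that the whole of miR-7 or miR-199a lies below miR-132. Mir338, at a mean of 61.0 CPM, was close to the counted reads of Mir7-1 and Mir199a-2. The summed neuroendocrine list (Mir375, Mir7-1, Mir7-2 and Mir7b, 3 of 4 detected) held 0.271% of gene counts in replicate 1 and 0.292% in replicate 2. Its part in the levels of the neural-type genes was not tested.

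By a rule on likeness, the genes closest to each single-copy member in both libraries were taken, with the larger of the 2 differences in log2(CPM + 1) as the measure over 2 samples. Closest to Mir132 were Mir24-2 (227.9 CPM in replicate 1 and 237.4 in replicate 2, difference 0.037) and Mir350 (212.3 and 246.6, difference 0.064). Closest to Mir212 were Mir449c, of the multiciliated cell family miR-449 (23.2 and 28.9 CPM, difference 0.060), and Mir1198 (21.95 and 26.2, difference 0.13). Closest to Mir338 were Mir199a-2 (65.2 and 56.0 CPM, difference 0.089) and Mir7-1 (64.1 and 57.2, difference 0.12). Mir24-2, Mir199a-2 and Mir7-1 have sequence copies.

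The libraries were next compared gene by gene, with a two-sided exact binomial test of each detected gene's counts against the library totals and Benjamini-Hochberg adjustment over all 347. This test compares the reads of these 2 libraries and holds no estimate of the spread between them. Pools of lungs and library preparation cannot be told apart here. Of the 5 detected neural-type genes, 3 passed at 0.05, where 47.0% of all detected genes did. With so few genes that share is near the background and says nothing particular about the group. Mir338 was the 1 gene higher in replicate 1, against a background of 16.4%, and Mir128-1 and Mir128-2 were the 2 higher in replicate 2, against 30.5%. Over all 347 genes, 57 were higher in replicate 1 and 106 in replicate 2 on library totals, but 74 and 84 with TMM factors and 78 and 75 with DESeq2 size factors, while the same 3 of the 5 genes passed in the same direction.

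The ratio of replicate 1 over replicate 2 was 0.584 for Mir128-1 (95% interval 0.511 to 0.667, log2 -0.78, exact binomial test, adjusted p = 6.5e-15). For Mir128-2 it was 0.361 (0.276 to 0.469, log2 -1.47, adjusted p = 7.6e-15). For Mir338 it was 1.32 (1.12 to 1.56, log2 0.40, adjusted p = 0.00232). Mir132 and Mir212 did not pass, with ratios of 0.931 (0.857 to 1.01, adjusted p = 0.156) and 0.874 (0.681 to 1.12, adjusted p = 0.406) by the same exact binomial test. The median log2 ratio was -0.19 over the 5 genes and -0.05 over all 347.

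Both Mir128 genes passed the binomial test and also differed by at least 1.5-fold, a pair of conditions that 5.19% of detected genes met. In the order of all 347 ratios, Mir128-2 was number 5 and Mir128-1 number 17 from the end that is highest in replicate 2, and Mir338 was number 328. When the spread is taken from a common dispersion (edgeR's exact test, a biological coefficient of variation of 14.7%), Mir128-2 alone of the 5 was called (adjusted p = 0.00892), with 1.44% of all detected genes. Under edgeR's exact test Mir128-1 had an adjusted p of 0.638, and Mir338 one of 1. The dispersion itself rests on these 2 libraries, so it contains their difference. Across all 62 detected genes with sequence copies, 9 were higher in replicate 1 and 11 in replicate 2, with a median log2 ratio of 0.05. The share of reads that fit several loci was 30.0% in replicate 1 and 31.8% in replicate 2, and its part in the Mir128 ratios was not tested.

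**Figure D3:**
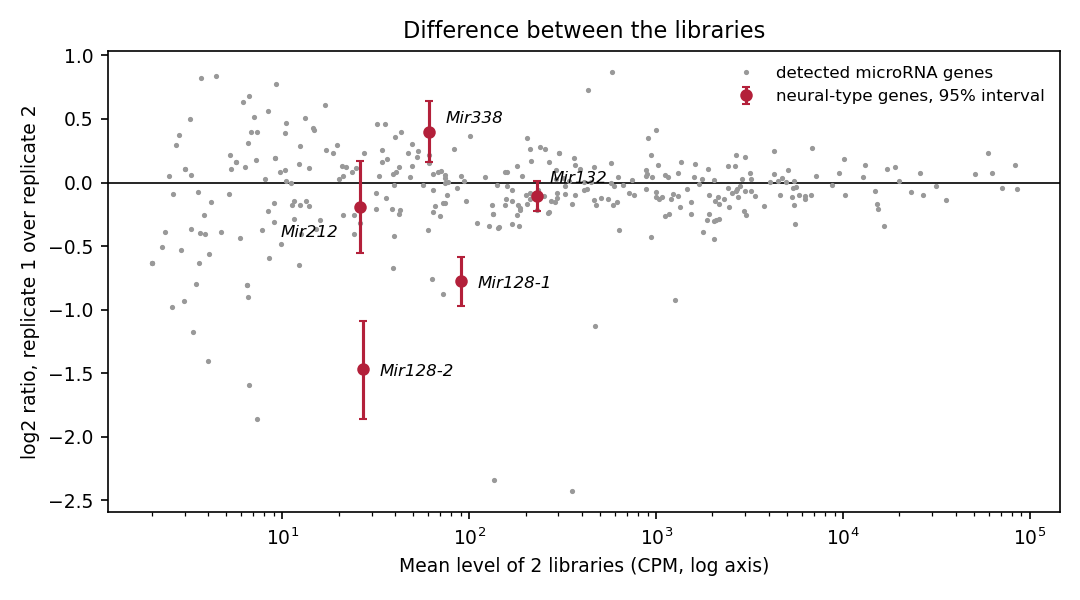
Log2 ratio of replicate 1 over replicate 2 for the 347 detected microRNA genes (grey), against mean level in CPM on a log axis. The 5 neural-type genes are in red with 95% intervals from counting error: Mir128-1 (-0.78) and Mir128-2 (-1.47) lie below 0, Mir338 (0.40) above, and the intervals of Mir132 and Mir212 include 0.

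A list of 13 other microRNA genes known from the nervous system was examined in the same way. Of these, 10 were detected, against 17.6% of all microRNA genes, 27.9% of single-copy genes and 7.12% of genes with copies. The list was drawn up with earlier results of these data known, so this is not an independent contrast. Together the 13 genes held 0.0424% of gene counts in replicate 1 and 0.0436% in replicate 2. Mir137, which acts in neuronal maturation, had 139.4 CPM in replicate 1 and 141.6 in replicate 2 (mean 140.5 ± 1.56, SD, n = 2). Mir598 had 122.6 and 145.3 CPM in replicates 1 and 2. These were the highest of the list, and both were below Mir132 in each library.

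The other members of that list were lower. Mir138-2 and Mir138-1, copies of a microRNA that limits the growth of dendritic spines, had means of 52.4 ± 5.23 and 32.2 ± 7.19 CPM (SD, n = 2). Mir219a-1, which like miR-338 acts in oligodendrocytes, had 20.2 CPM in replicate 1 and 19.9 in replicate 2, and its copy Mir219a-2 had 2.04 and 4.61. Mir153 had 21.5 and 17.5 CPM, and Mir383 9.57 and 15.03, in replicates 1 and 2. Mir129-1 and Mir129-2 averaged 7.74 and 5.25 CPM. Mir488 (10 and 4 counts in replicates 1 and 2), Mir873a (8 and 6) and Mir124a-3 (0 and 1) were not detected.

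Between the libraries, 3 of the 10 detected genes of the list differed by the exact binomial test, 1 higher in replicate 1 and 2 higher in replicate 2. Of all detected genes, 47.0% differed (16.4% higher in replicate 1 and 30.5% higher in replicate 2). With so few genes, the smaller share says nothing particular about the list. Its detected genes also had a lower median level, 19.8 CPM against 180.2 CPM for all, and the part of level was not tested. The ratio of replicate 1 over replicate 2 was 1.37 for Mir138-1 (adjusted p = 0.0130), 0.844 for Mir598 (adjusted p = 0.00547) and 0.636 for Mir383 (adjusted p = 0.0288), by the exact binomial test. The median log2 ratio of the 10 genes was 0.0011. The CPM ratio of Mir128-2, 0.361 (interval 0.276 to 0.469), was further from equal levels than that of any of these 10 genes. Mir219a-2 came nearest at 0.442 (interval 0.201 to 0.944, adjusted p = 0.0594, exact binomial test), with 13 counts in replicate 1 and 19 in replicate 2. The interval of Mir219a-2 spans that of Mir128-2, so these ratios do not rank the 2 genes.

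**Figure D4:**
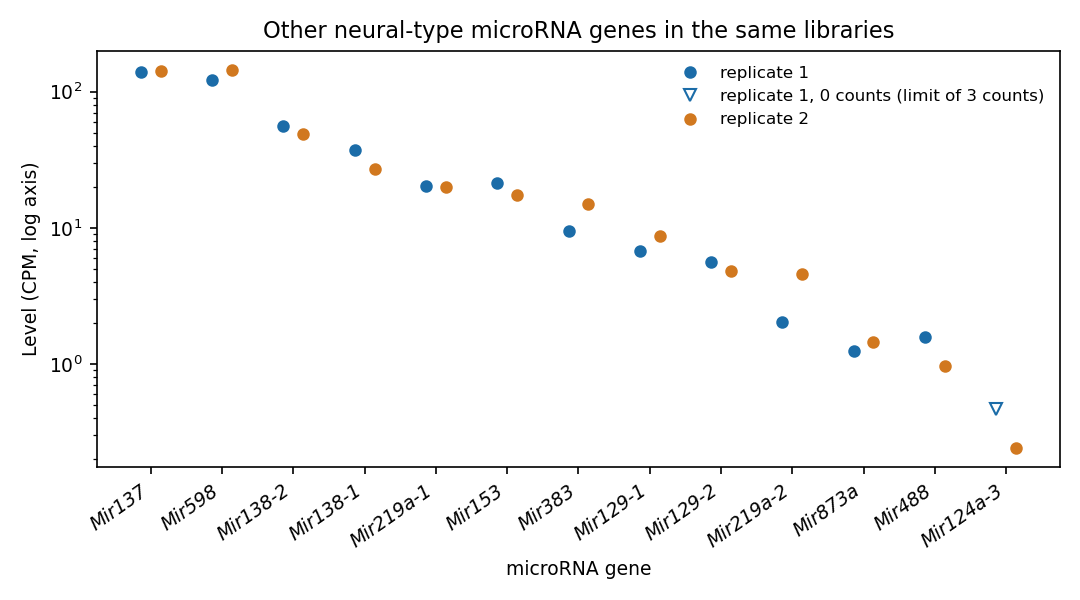
Level of the 13 other neural-type microRNA genes in replicate 1 (blue) and replicate 2 (orange), in CPM on a log axis. Mir137 and Mir598 lie above 100 CPM in both libraries, and the open triangle marks the limit of 3 counts for Mir124a-3 in replicate 1.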

How the data were processed

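For each of 2 libraries the authors deposited raw read counts by microRNA gene, without normalization. Per the file headers the tables use assembly mm10 and GENCODE M4. For the aligner, counting program and trimming, no name is given in the sources used. The column that ignores strand was used; of the other columns, the one with the larger total was read as sense, since no header names the strand, and it holds 97.4% and 97.3% of the gene counts of replicates 1 and 2. The summary lines (unmapped, several loci, outside genes) stayed out of totals. Symbols, coordinates and hosts come from GENCODE M21 on mm10, which matched 1894 of 1973 identifiers. Genes with 22 shared hairpin bases were called copies, and sequence outside microRNA hairpins was not searched. CPM, a log2 pseudocount of 1, exact binomial tests across all 347 detected genes with Benjamini-Hochberg adjustment, exact Poisson intervals for levels, exact binomial (Clopper-Pearson) intervals for shares and ratios, both at 95%, and a limit of 3 counts were computed in Python 3.11.15 with scipy 1.17.1. edgeR 4.0.16 and DESeq2 1.42.0 (R 4.3.3) gave alternative scales.

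The members and the gene lists were chosen with earlier results of these data known. Named are all members, overlapping and neighbouring microRNA genes, the other neural-type list, the leading gene of each marker list and the closest genes in level. Nothing in the labels separates pools from library preparation, so p-values measure only the difference between these libraries.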

Additional observations from a re-analysis of the deposited data

Results flagged for a closer look

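The opposite-strand column, which the comparisons above do not use, held more counts than the limit of 3 for 2 of the named genes. Mir126a had 23 opposite-strand counts in replicate 1 and 12 in replicate 2. Mir219a-1 had 5 opposite-strand counts in replicate 1 and 1 in replicate 2, against 129 and 82 counts in all, and the annotation places Mir219c on that strand. All 9 measured neural-type genes had 0 opposite-strand counts in both libraries.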

How the results depend on the processing

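The number of neural-type genes that differ between the libraries was 3 with the binomial test under TMM factors, DESeq2 size factors, the sense column and count minimums of 5 and 20, and the same 3 genes were called each time. It was 4 of 7 with no filter on low counts, where Mir9-3 was added and 22.6% of the 709 genes tested were called, and 1 with the exact test of edgeR under a common dispersion, which sets a spread between libraries beside counting error. Adding reads that fit several loci to the total lowered the share of the neural-type genes to 0.0268%, by construction, and the single-copy genes alone held 0.0317%. Detection and the proportion of Mir132 to Mir212 stayed within 1.5 times and 1 SD under every setting tried. No paired analysis was possible because there is a single group. With 1 library left out no comparison of libraries can be made, and Mir9-3 passes the count minimum in replicate 2 alone. Mir9-2, Mir124a-1 and Mir124a-2 lie below the limit of 3 counts in both libraries, and Mir9-3 is at it in replicate 1 but above it, at 14 counts, in replicate 2.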
